A study of Xenopus laevis with 4 samples.

Results

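Translation factors and aminoacyl-tRNA synthetases were compared between the dorsal and the ventral pancreatic bud of *Xenopus laevis* tadpoles. The genes were taken by symbol: initiation factors (eif), elongation factors (eef), the release factors etf1 and gspt1, cytoplasmic poly(A)-binding proteins (pabpc) and tRNA synthetases whose symbol ends in ars, ars1 or ars2. No measured value entered that rule. It found 119 probe sets for 85 genes, with the L and S homeologues of this allotetraploid frog counted as separate genes, out of 15491 probe sets that were not controls and 7531 genes named by a probe set with exactly 1 symbol. Each of the 4 samples was total RNA from a pool of 1000 to 3000 buds, cut from anaesthetised tadpoles before the buds had fused, with 2 dorsal and 2 ventral pools and 1 Affymetrix array per pool. The labels name no strain, stage or genotype, and they do not say whether pools of a kind came from separate clutches, so p-values reflect no more than the spread of these pools, which may be technical. On the design, the labels state that the 2 kinds of bud were analysed, 2 samples each.

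Translation starts when initiation factors bring the initiator tRNA, carried by eIF2, and the cap of the mRNA, bound by the eIF4 proteins, to the small ribosomal subunit, with eIF3 as scaffold. Elongation factors then deliver aminoacyl-tRNAs and move the ribosome along, release factors end the chain, and synthetases load each tRNA with its amino acid. The pancreas is known for a high rate of protein synthesis, since acinar cells make large amounts of digestive enzyme and beta cells of insulin.

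Levels of these transcripts were close in the 2 buds, and no gene of the machinery differed beyond the spread between pools after adjustment. Values are the intensities deposited by the authors, differences are log2 of dorsal minus ventral after adding 6 to each intensity, and the error of a difference is the moderated standard error of limma. Of 119 probe sets, 110 for 80 genes were bright enough to be tested. At an adjusted p under 0.05, 0 of the 110 passed, against 0.258% of all 9294 probe sets tested with limma, and their lowest adjusted p was 0.543. An unadjusted p under 0.05 was reached by 3 (2.73%), against a background of 8.62%. All 3 were higher in dorsal buds, where the background is 3.41%, and 0 were higher in ventral buds, where it is 5.21%. Differences ran from -0.39 for eif4ebp2.S to 0.70 for eef1a1o.S. A difference over 1, which is a doubling, was fitted for 0 of the 110 and for 2.27% of all probe sets tested. The 95% interval of the difference lay within 1 log2 unit on both sides for 104 of the 110 (94.5%), compared with 82.2% of all, so for these a doubling between the buds lay outside the interval. Intervals that reached farther belonged to eif4ebp2.S, eef1a1o.S, eif1ad.L, both probe sets of eif3a.S and a dim probe set of vars1.S, read at 10.7, 53.6, 21.5 and 19.9 on dorsal replicates 1 and 2 and ventral replicates 1 and 2. On the 4 arrays, the highest intensity was under 1.5 times the lowest for 84 probe sets (76.4%), and for 53.3% of all. The translation probe sets were also brighter than most. The median intensity of the 119 was between 226 and 280 on the 4 arrays, against 21.8 to 24.2 over all 15491. The shares over all were not matched for intensity.

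**Figure D1:**
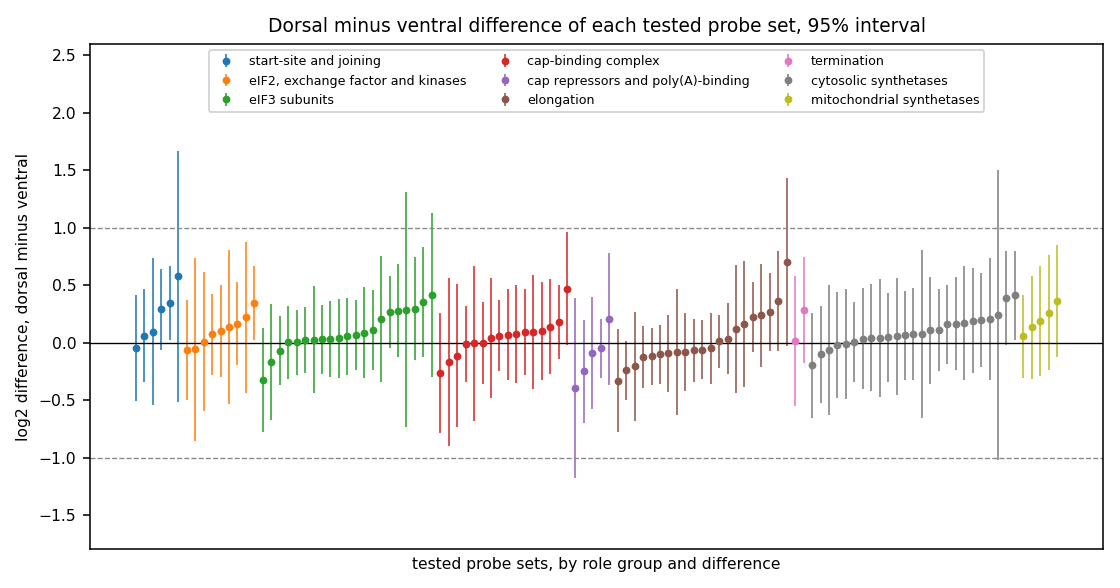
Log2 difference, dorsal minus ventral, of each of the 110 tested probe sets with its 95% interval, grouped by role. Points run from -0.39 to 0.70 and none reaches the dashed lines at 1 log2 unit.

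**Figure D2:**
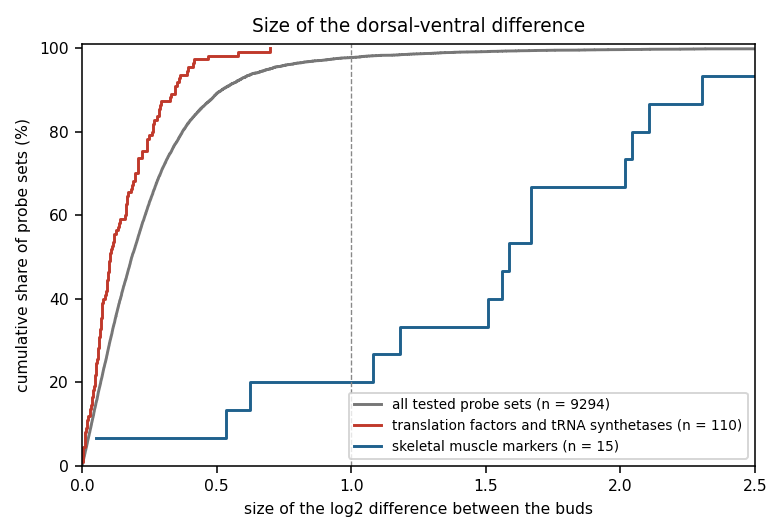
Cumulative share of probe sets (%) against the size of the log2 difference between the buds, for the 110 translation probe sets, all 9294 tested and 15 skeletal muscle markers. The curve of the translation probe sets ends before 1, where 2.27% of all probe sets and 80.0% of the muscle markers are still to come. Of the marker lists, muscle has the largest such share. It is 55.6% for red cells and leukocytes, 43.5% for liver, 38.9% for pancreas, 16.7% for mesenchyme and 0% for neural (1 probe set). The lists were chosen with earlier results of these data known.

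In the reported fit, the direction of the small differences leaned to the dorsal side. The difference was above 0 for 77 of 110 probe sets (70.0%), where 54.3% of all probe sets lay above 0, and the median was 0.06 against 0.03. With quantile normalization 64 of 110 (58.2%) lay above 0 and the median was 0.02, against 53.6% and 0.02 for all. Without dorsal replicate 1 it was 57 of 110 (51.8%) with a median of 0.01, against 53.9% and 0.03 for all. A median above that of all probe sets was thus not kept in either setting. It was kept in the other fits with 1 array left out. The median was 0.12 without dorsal replicate 2, 0.10 without ventral replicate 1 and 0.06 without ventral replicate 2. Those of all probe sets were 0.02, 0.03 and 0.02. With arrays centred on the median it was 0.07, against 0.03 for all. Both dorsal arrays lay above both ventral arrays for 25 probe sets, where the background is 21.9%, and below them for 7, where it is 18.1%. In sum 29.1% did not overlap, against 39.9% of all. The remaining 78 overlapped between the buds.

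The dorsal pools differed more from each other than the ventral pools did. Over the 110 probe sets, log2 values of the dorsal pair differed with an SD of 0.46 and those of the ventral pair with an SD of 0.19. Correlation of log2 intensity across these probe sets, which are not independent replicates, was 0.971 between the dorsal arrays and 0.995 between the ventral arrays. Dorsal replicate 1 stood at 0.992 and 0.993 with the ventral arrays, and dorsal replicate 2 at 0.979 and 0.983. Dorsal replicate 2 was the highest or the lowest of the 4 arrays for 71 of 110 probe sets (64.5%), as it was for 61.4% of all. It was the highest for 32 and the lowest for 39, and dorsal replicate 1 was the highest for 47 and the lowest for 15. Over all 9294 these counts were 3137 and 2570 for dorsal replicate 2, and 2465 and 2438 for dorsal replicate 1. When 1 array was left out, the number past the threshold also moved widely over all probe sets. Without either ventral replicate hardly any of all probe sets passed, so those fits cannot tell the members from the rest. Without dorsal replicate 1, when dorsal replicate 2 alone stands for the dorsal bud, 11 of 110 passed (10.0%), against 9.71% of all probe sets, with 7 higher in dorsal and 4 higher in ventral. Without dorsal replicate 2, 1 passed, tars1.L, against 3.74% of all, and without either ventral replicate 0 passed.

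**Figure D3:**
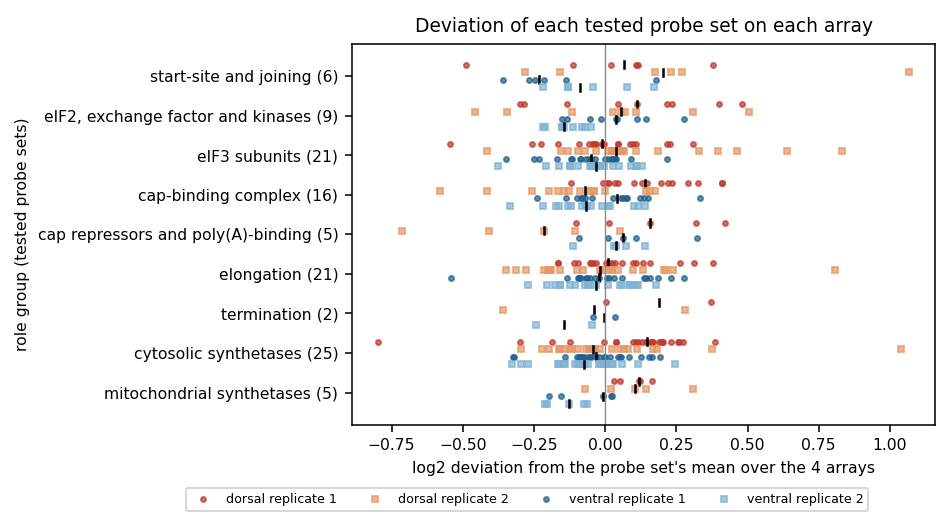
Log2 deviation of each tested probe set from its own mean over the 4 arrays, by role group and array, with a black tick at the median. Points of dorsal replicate 2 spread widest in most groups, and the median of cytosolic synthetases on dorsal replicate 1 lies at 0.15.

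Technical values and markers of pancreas and of other tissues also moved between the arrays. The ratio of the 3′ to the 5′ control probe set of the Gapd transcript can rise with RNA breakdown. It was 9.69 and 5.53 in dorsal replicates 1 and 2 and 7.52 and 7.55 in the ventral replicates, so the dorsal arrays lay on either side of the ventral ones. For the bAct control, the 3′ probe set read below the 5′ one on every array. These read 139 against 641 and 189 against 2000 in the dorsal replicates, and 207 against 1354 and 202 against 1403 in the ventral ones. Some pancreas markers were dim in the ventral pools, below 21.5, the highest reading of the empty control probe sets. There pcsk2.L read 5.26 and 2.83, neurod1.L 10.5 and 12.5, and insm1.L 15.1 and 14.0. Of 18 pancreas markers tested, 15 lay on the dorsal side. An unadjusted p under 0.05 was reached by 6 (33.3%, against 8.62% of all), all higher in dorsal. Of these, ins.L, ins.S and pcsk2.L passed after adjustment, and the others were insm1.L, neurod1.L and cpa1.L. The 3 on the ventral side were the enzyme genes ctrb1.L (-0.17), ctrc.L (-0.26) and prss1.L (-0.07). Summed intensity of the pancreas markers was 19774 and 10356 in the dorsal pools against 12733 and 6698 in the ventral ones, so replicate 1 was the higher one in both. Bright enzyme genes weigh most in that sum, such as ctrb1.L at 5037 and 2825 in the dorsal pools. Of the 18 tested markers, 14 were higher on dorsal replicate 1 than on dorsal replicate 2. The reverse held for 4: ins.S (1970 and 2670), pcsk2.L (81.6 and 155), neurod1.L (30.7 and 73.4) and insm1.L (44.8 and 54.0). Of the markers of red cells and leukocytes, 9 of 9 tested lay on the ventral side, with sums of 6953 and 4557 in the dorsal pools against 8303 and 11088 in the ventral ones. Skeletal muscle markers lay on the ventral side for 14 of 15 (sums 604 and 409, and 1171 and 1546), liver markers for 20 of 23 (sums 3526 and 6466, and 8812 and 8677) and mesenchyme markers for 12 of 12 (sums 978 and 1291, and 1598 and 2248). Of 9 neural probe sets 1 could be tested, tubb3.L, at 0.33. The part of these markers and of RNA breakdown in the small shifts of the translation genes was not tested. Whether the marker transcripts came from other tissues or from cells of the buds was not tested either. In pooled tissue, fewer cells of a type and less RNA per cell cannot be told apart.

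Factors of start-site choice and subunit joining included one of the 3 probe sets with an unadjusted p under 0.05. Intensity of eif6.S, which keeps the large ribosomal subunit from joining too early, was 757 and 823 in the dorsal pools against 601 and 638 in the ventral ones. The dorsal arrays were the higher ones with no overlap, and the difference was 0.35 ± 0.14 (adjusted p = 0.543), with means of 789.9 ± 46.1 and 619.9 ± 26.1 (SD, n = 2 each). For eif1b.L, an eIF1 that guards start-codon choice, the arrays read 959 and 1142 in the dorsal pools against 796 and 918 in the ventral ones. They did not overlap either, and the difference was 0.29 ± 0.15 (adjusted p = 0.654). Its homeologue eif1b.S lay at 0.06 with overlapping arrays. Probe sets of eif5.S, the factor that triggers GTP hydrolysis by eIF2, lay at -0.05 and 0.10. The widest spread was that of eif1ad.L, named for its eIF1A-like domain and in human cells a factor of small-subunit maturation, at 22.1 and 76.3 in the dorsal pools against 24.6 and 27.8 in the ventral ones. A single array, dorsal replicate 2, stood above the others, and the difference of 0.58 ± 0.46 was 1.36 without dorsal replicate 1 and -0.20 without dorsal replicate 2.

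The eIF2 complex, which carries the initiator tRNA, was measured through all 3 of its subunits. Its gamma subunit eif2s3.S, the one that binds GTP and the tRNA, read 843 and 772 in the dorsal pools against 652 and 617.7 in the ventral ones. Dorsal arrays were higher without overlap, with a difference of 0.34 ± 0.14 (adjusted p = 0.543) and an interval from 0.02 to 0.66 before adjustment. The alpha subunit eif2s1.S, the target of the stress kinases, read 699 and 554 in the dorsal pools against 619 and 543 in the ventral ones. These arrays overlapped, and the difference was 0.10 ± 0.17 (adjusted p = 0.912). The beta subunit lay at 0.07 for eif2s2.L and 0.16 for eif2s2.S. Of the exchange factor eIF2B, which recharges eIF2 with GTP, eif2b4.L read 74.4 and 133 in the dorsal pools against 82.3 and 87.2 in the ventral ones. Here the dorsal arrays lay on both sides of the ventral ones, at a difference of 0.22 ± 0.28 (adjusted p = 0.868) that was 0.62 without dorsal replicate 1 and -0.17 without dorsal replicate 2. Its partners eif2b2.L and eif2b3.L lay at 0.01 and -0.06, and eif2a.S, an alternative initiator tRNA carrier, at 0.14. The double-stranded RNA-activated kinase eif2ak2.L lay at -0.06, and the heme-regulated kinase eif2ak1.L was too dim to be tested, between 10.1 and 13.4.

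Subunits of eIF3, the scaffold of the initiation complex, were represented by 21 probe sets of 13 genes, all tested. None had an unadjusted p under 0.05, and the median difference was 0.05, with 18 above 0 (85.7%, against 54.3% of all). With quantile normalization 12 lay above 0, where it was 53.6% of all. Without dorsal replicate 2 the median was -0.00428 and 10 lay above 0, where it was 52.3% of all. It was 15 without dorsal replicate 1, 15 without ventral replicate 1 and 16 without ventral replicate 2. Some subunits were nearly level. For eif3d.S the arrays read 1793 and 1566 in the dorsal pools against 1544 and 1810.0 in the ventral ones, and eif3e.L 1116 and 1197 against 1166 and 1114. Their differences were 0.00 ± 0.13 and 0.02 ± 0.12, with intervals from -0.31 to 0.32 and from -0.27 to 0.31. For eif3c.S, a core subunit, the arrays read 1102 and 966 in the dorsal pools against 836 and 879 in the ventral ones in one probe set. They did not overlap, and the difference was 0.27 ± 0.13 (adjusted p = 0.654), while a second probe set with overlapping arrays lay at 0.21. Taking each gene by its probe set with the highest mean log2, the 3 eIF3 genes that differed most were eif3a.S, eif3k.L and eif3m.S. Other probe sets reached -0.33 in eif3a.L and 0.29 in eif3b.L, whose remaining probe sets lay at 0.04 and 0.11. The probe set of eif3k.L read 534 and 726 in the dorsal pools against 431 and 548 in the ventral ones, which overlapped, with a difference of 0.35 ± 0.20 (adjusted p = 0.687). A second, dim probe set of eif3k.L, between 22.3 and 28.5, lay at -0.17, the widest gap within a gene at 0.52. For eif3m.S one probe set lay at 0.28 ± 0.17 (adjusted p = 0.711) and the other at 0.03. The large subunit gene eif3a.S read 42.5 and 82.3 in the dorsal pools against 41.6 and 44.6 in the ventral ones. Dorsal replicate 2 alone stood apart, and the difference of 0.41 ± 0.30 (adjusted p = 0.753) was 0.85 without dorsal replicate 1 and -0.02 without dorsal replicate 2. Of its homeologue eif3a.L, 3 probe sets lay at 0.03, 0.00 and -0.33.

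Cap-binding factors gave 16 tested probe sets of 13 genes, with a median of 0.06 and none at an unadjusted p under 0.05. In the reported fit 10 of 16 lay above 0 (62.5%, against 54.3% of all). Without dorsal replicate 1 the median was -0.06, with 6 above 0, where it was 53.9% of all. Without ventral replicate 2 it was -0.02, with 7 above 0, where it was 53.2% of all. Without dorsal replicate 2 the median was 0.18, with 13 above 0, where it was 52.3% of all. Without ventral replicate 1 it was 0.08, also with 13 above 0, where it was 54.1% of all. With quantile normalization 8 lay above 0, where it was 53.6% of all. Largest was the difference of eif4e1b.S, an eIF4E relative known from oocytes, which read 52.0 and 45.1 in the dorsal pools against 36.1 and 30.8 in the ventral ones. The arrays did not overlap, and the difference was 0.47 ± 0.21 (adjusted p = 0.603). The helicase eif4a3.1.S, a core protein of the exon junction complex, read 777 and 875 against 723 and 731, without overlap, at 0.18 ± 0.14 (adjusted p = 0.758). The helicase that opens the 5′ end of mRNAs lay at 0.07 for eif4a1.L and 0.06 for eif4a1.S. Scaffold genes lay at 0.09 for eif4g1.S, -0.01 for eif4g2.S and -0.17 for eif4g3. A divergent eIF4E, eif4e3.L, was dim, at 21.7 and 17.3 in the dorsal pools against 24.95 and 24.2 in the ventral ones, with the ventral arrays the higher ones and a difference of -0.26 ± 0.22 (adjusted p = 0.784).

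Repressors of the cap and poly(A)-binding proteins formed the group with the lowest median, -0.09 over 5 tested probe sets, which was 0.03 without dorsal replicate 2. The repressor eif4ebp2.S, which sequesters eIF4E until it is phosphorylated, read 170.5 and 80.2 in the dorsal pools against 171 and 143 in the ventral ones. Dorsal replicate 2 was the low array, and dorsal replicate 1 matched the ventral ones. The difference of -0.39 ± 0.33 (adjusted p = 0.784) was -0.91 without dorsal replicate 1 and 0.12 without dorsal replicate 2. The main poly(A)-binding protein showed the same array as low in pabpc1.L, at 1476 and 995 in the dorsal pools against 1426 and 1459 in the ventral ones, a difference of -0.25 ± 0.19 (adjusted p = 0.76). It read -0.53 without dorsal replicate 1 and 0.03 without dorsal replicate 2. Its homeologue pabpc1.S was level at 2219 and 2468 against 2400.4 and 2444, a difference of -0.05 ± 0.11. For pabpc4.L, a relative of pabpc1, the difference of 0.21 ± 0.24 (adjusted p = 0.858) was -0.11 without dorsal replicate 1 and 0.53 without dorsal replicate 2.

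Elongation factors gave 21 tested probe sets of 12 genes, with a median of -0.06 and none at an unadjusted p under 0.05. The median was 0.02 with quantile normalization, 0.03 without dorsal replicate 2 and 0.02 without ventral replicate 2. The tRNA carrier eef1a1.S read 3687 and 4266 in the dorsal pools against 4226 and 4392 in the ventral ones. These values overlapped, with a difference of -0.12 ± 0.11 (adjusted p = 0.797) and an interval from -0.37 to 0.13. The translocase eef2.1.L read 3577 and 3485 against 3363 and 3646, a difference of 0.01 ± 0.10 (adjusted p = 0.981) with an interval from -0.22 to 0.24. Its other probe sets lay at -0.09 and -0.07. The hypusine-bearing factor eif5a.L, which helps peptide bonds form at proline runs, read 3972 and 3413 against 3847 and 4046 in the probe set chosen to name it, at -0.10 ± 0.11 (adjusted p = 0.841). Its other 4 probe sets lay between -0.33 and 0.16. Of the exchange complex that recharges eEF1A, the gamma subunit lay at -0.24 and -0.13 for eef1g.L and -0.21 for eef1g.S. The delta subunit lay at 0.22 for eef1d.L and -0.08 for eef1d.S.

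The oocyte form of eEF1A had the largest difference of the whole set. Its probe set eef1a1o.S read 223 and 426 in the dorsal pools against 164 and 216 in the ventral ones, with means of 325 ± 144 and 189.6 ± 36.7 (SD, n = 2 each). Both dorsal arrays were higher, with dorsal replicate 1 close to ventral replicate 2. The difference of 0.70 ± 0.31, or 1.62-fold, had an interval from -0.03 to 1.43 and an adjusted p of 0.598. It was 1.16 without dorsal replicate 1 and 0.24 without dorsal replicate 2. The other copy, eef1a1o.L, did not pass the filter on low values, with 10.8 and 22.9 in the dorsal pools against 13.1 and 6.36 in the ventral ones. The muscle and neuron form eef1a2.S did so too, with 6.54 and 13.4 against 7.86 and 10.3, on arrays where muscle markers were higher in ventral buds. Besides eef1a1o.S, both dorsal arrays were higher in eef1aknmt.S, eef1e1.L, eef1akmt1.S and eef1d.L, and both ventral arrays in 1 probe set each of eef1g.L and eif5a.L. The eEF1A methyltransferase eef1aknmt.S read 112 and 116 in the dorsal pools against 93.0 and 81.3 in the ventral ones, at 0.36 ± 0.18 (adjusted p = 0.654). The scaffold eef1e1.L, which joins the synthetase complex, read 499 and 499 against 426 and 401, at 0.27 ± 0.14 (adjusted p = 0.66).

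Release factors were measured by 1 probe set each. For etf1.S, the factor that reads the stop codons, intensity was 675 and 404 in the dorsal pools against 532 and 503 in the ventral ones. The dorsal arrays lay on both sides of the ventral pair, and the difference was 0.01 ± 0.24 (adjusted p = 0.99). Its GTPase partner gspt1.L read 133 and 162 against 128 and 111, at 0.29 ± 0.19 (adjusted p = 0.74).

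**Figure D4:**
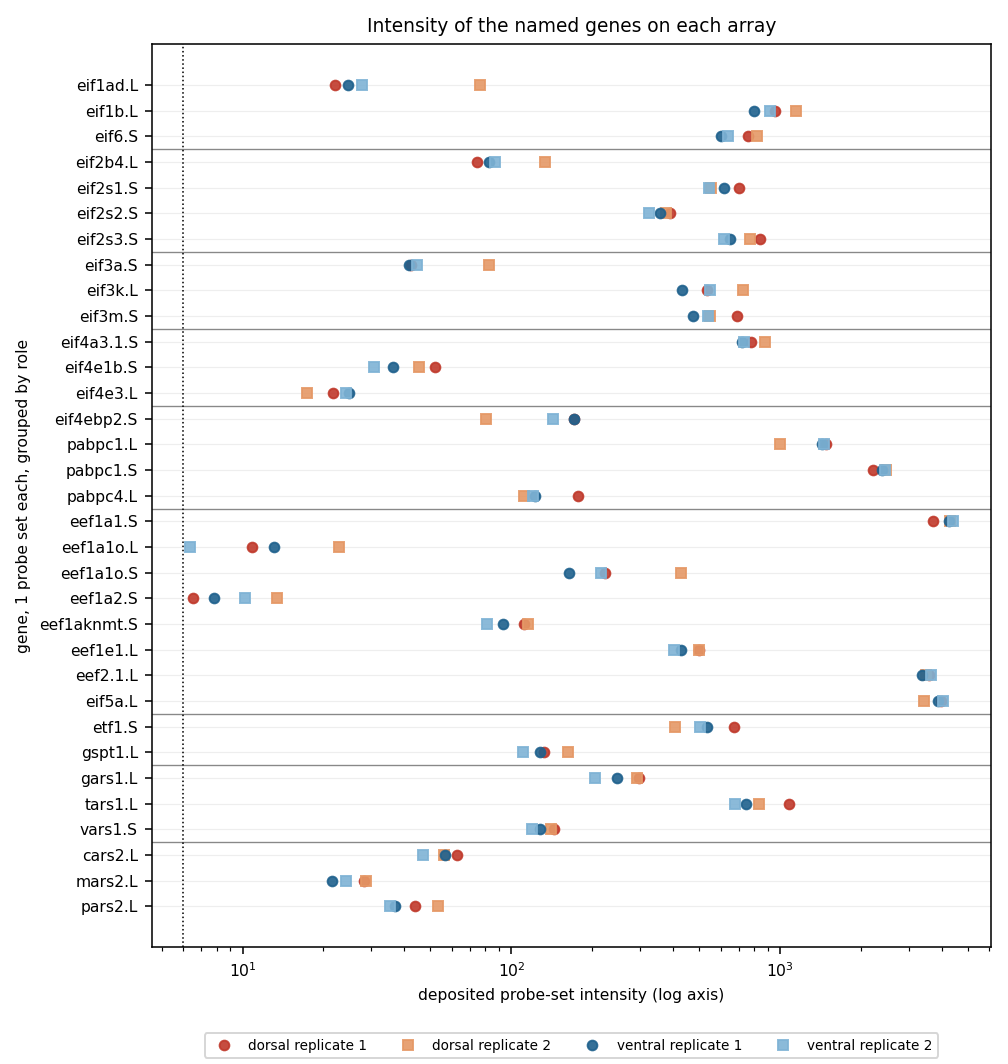
Deposited intensity (log axis) of 33 genes named by rule, 1 probe set each, on each of the 4 arrays, with lines between the role groups and a dotted line at the added value of 6. The bright genes eef1a1.S, eef2.1.L and eif5a.L have their 4 arrays close together, while eif1ad.L, eif3a.S and eef1a1o.S have dorsal replicate 2 to the right of the other arrays.

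Cytosolic tRNA synthetases gave 25 tested probe sets of 16 genes, with a median of 0.07. Of these, 20 lay above 0 (80.0%, against 54.3% of all). An unadjusted p under 0.05 was reached by 1 (4.0%, against 8.62% of all). With quantile normalization 14 of 25 lay above 0, where it was 53.6% of all. Without dorsal replicate 1 it was 13 of 25, where it was 53.9% of all. It was 20 without dorsal replicate 2, 19 without ventral replicate 1 and 16 without ventral replicate 2. Those shares over all were 52.3%, 54.1% and 53.2%. Threonyl-tRNA synthetase tars1.L read 1076 and 836 in the dorsal pools against 745 and 681 in the ventral ones. The arrays did not overlap, and the difference was 0.41 ± 0.16, or 1.33-fold (adjusted p = 0.546). Without dorsal replicate 2 it was 0.59, and without dorsal replicate 1 it was 0.23. A second probe set of tars1.L lay at 0.21 with overlapping arrays. Glycyl-tRNA synthetase gars1.L, which serves both cytosol and mitochondria, read 299 and 294 against 248 and 205, at 0.39 ± 0.17 (adjusted p = 0.598). Probe sets of its homeologue gars1.S lay between 0.03 and 0.07. Valyl-tRNA synthetase vars1.S read 144 and 141 against 128 and 119.6, at 0.20 ± 0.17 (adjusted p = 0.798), and its other probe sets lay at -0.01 and 0.24. On dorsal replicate 1, 16 of the 25 probe sets had their highest intensity, as did 47 of the 110 and 2465 of all 9294. That array also had the highest Gapd ratio and the highest sum of pancreas markers, though not the highest ins.S, pcsk2.L, neurod1.L or insm1.L. The part of the ratio and of the markers in this was not tested.

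Mitochondrial synthetases lay above 0 in 5 of 5 genes, where it was 54.3% of all probe sets, with a median of 0.19. With quantile normalization it was 4 of 5, against 53.6% of all. None had an unadjusted p under 0.05 in the reported fit. Prolyl-tRNA synthetase pars2.L read 43.6 and 53.2 in the dorsal pools against 36.9 and 35.5 in the ventral ones, without overlap, at 0.36 ± 0.21 (adjusted p = 0.687). Methionyl-tRNA synthetase mars2.L read 28.2 and 28.8 against 21.5 and 24.2, at 0.26 ± 0.21 (adjusted p = 0.772). It was dim, and on ventral replicate 1 it was level with the highest empty control probe set of that array. For cysteinyl-tRNA synthetase cars2.L the arrays overlapped, with 62.9 and 56.4 against 56.6 and 47.1, at 0.19 ± 0.20 (adjusted p = 0.841). The remaining pair, rars2.S and hars2.L, lay at 0.13 and 0.05.

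For 12 pairs of homeologues both the L and the S copy were tested, and the copies lay on the same side of 0 in 10 pairs. Their gap had a median of 0.12 and reached 0.39 in eif3a. Probes of one copy may also bind the other, so the copies are not independent. In 20 genes with several tested probe sets the median gap was 0.14, and 1 gene, eif3k.L, exceeded 0.5. In 9 of these 20 genes the probe sets lay on both sides of 0. These gaps are sizes without sign, so they are not set against the signed median difference of 0.06 over the 110 probe sets. The quartiles of that difference were -0.04 and 0.19. The largest differences, those of eef1a1o.S, eif1ad.L and eif4e1b.S, had no second tested probe set or copy.

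Forms of the machinery known from the egg were looked at together, chosen after their values were seen. Probe sets named for the oocyte eEF1A gene eef1a1o.S and the oocyte cap-binding gene eif4e1b.S passed the filter on low values. Both genes were among the 3 with the largest differences. The other oocyte eEF1A copy, eef1a1o.L, fell short of that filter. Its arrays read 10.8 and 22.9 in the dorsal pools against 13.1 and 6.36 in the ventral ones. Whether the eef1a1o.S probe set also binds transcripts of the brighter eef1a1.S was not tested. The embryonic poly(A)-binding protein gene pabpc1l was dim, at 9.14 and 9.84 in the dorsal pools against 2.94 and 10.9 in the ventral ones for pabpc1l.L, and at 7.29 and 3.23 against 4.91 and 8.56 for pabpc1l.S. All these pabpc1l values lay below 21.5, the highest reading of the 17 empty control probe sets. Of the eef1a1o.L values, only that of dorsal replicate 2 lay above it. Of the 9 untested probe sets, 7 lay below 21.5 on every array.

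Genes that work beside these factors were read from 4 further lists, and none of their probe sets passed after adjustment. In mitochondrial translation, the system that the mitochondrial synthetases serve, 41 probe sets had a median of 0.20 against 0.03 over all, with 34 above 0 (82.9%, against 54.3%). With quantile normalization the median was 0.18 and 33 lay above 0. Both dorsal arrays were higher in 17 of the 41, where the background is 21.9%, and both ventral arrays in 1, where it is 18.1%. An unadjusted p under 0.05 was reached by 5, all dorsal (12.2%, against 3.41% of all on the dorsal side), and by 3 with quantile normalization. These 5 were mrpl16.S (0.46), mrpl39.L (0.54), mrps2.S (0.48), mrps33.L (0.50) and the elongation factor gene tsfm.L (0.49). Among 11 probe sets of synthetases outside the rule and of their complex, 0 passed and 1 had an unadjusted p under 0.05 (9.09%, against 8.62% of all). It was farsa.S of phenylalanyl-tRNA synthetase (0.52, adjusted p = 0.56), whose homeologue farsa.L lay at -0.10. The complex scaffold aimp2.L lay at 0.75 (adjusted p = 0.62), read 107 and 211 in the dorsal pools against 107 and 71.3 in the ventral ones, and aimp2.S lay at 0.15. Among 20 probe sets of ribosome rescue, recycling and factor maturation, 0 passed and 1 had an unadjusted p under 0.05 (5.0%, against 8.62% of all). It was a probe set of the recycling ATPase abce1.S (0.46, adjusted p = 0.54), with the others of that gene at 0.19 and 0.13. Among 19 of mTOR control and the amino acid response, 0 passed and 0 had an unadjusted p under 0.05. The largest there was 0.70 ± 0.53, a probe set of the S6 kinase gene rps6kb1.S whose other 3 lay between -0.04 and 0.33. The probe set at 0.70 read 13.9 and 64.2 in the dorsal pools against 19.2 and 15.0 in the ventral ones. Dorsal replicate 2 alone stood apart.

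Cytosolic ribosomal proteins leaned the other way. Of 83 tested probe sets 67 lay below 0, with a median of -0.11. Below 0 lay 33 of 110 translation factor and synthetase probe sets and 4243 of all 9294. Of the 83, 0 passed, 5 had an unadjusted p under 0.05, all ventral (6.02%, against 5.21% of all on the ventral side), and the ventral arrays were both higher in 39 and the dorsal arrays in 3, against the 18.1% and 21.9% given above. Summed intensity was 209366 and 215044 in the dorsal pools against 227793 and 227807 in the ventral ones, while the 119 translation probe sets summed to 71093 and 68393 in the dorsal pools against 68838 and 69480 in the ventral ones. With quantile normalization the ribosomal median was -0.01, with 48 of 83 below 0 and 35 above. There 53.6% of all probe sets lay above 0, with a median of 0.02. With arrays centred on the median, the ribosomal median was -0.10 and 66 lay below 0. When 1 array was left out, the median ran from -0.14 to -0.09. The lean was thus much smaller with quantile normalization and kept in these other settings. The contrast between the 2 groups was not tested.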

How the data were processed

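The authors deposited probe-set intensity on a linear scale. The submitters' processing notes name MAS5, with no version or settings. Per the labels' protocols, biotin-labelled cRNA was transcribed in vitro from cDNA primed at the poly(A) tail. The mean over probe sets that were not controls was 100 on every array, and no further scaling was applied. Detection calls are not given in the sources used here. Of 15611 probe sets, 120 controls were left out. Before taking log2, 6 was added to each value as pseudocount (the 20th percentile over all arrays), which understates differences of dim genes. Probe sets with a mean log2 above the 40th percentile were tested across all probe sets with limma 3.58.1 in R 4.3.3 (intensity trend, no covariate, two-sided, Benjamini-Hochberg). The procedure was first run on simulated data with larger changes than those of the members and less noise than the dorsal pair. That run does not cover differences of the size reported here. Symbols came from the platform annotation; gene identifiers matched a RefSeq table (assembly Xenopus laevis v10.1) for 118 of the 119 probe sets and changed 0 symbols. No sequence or position is given. Each gene was named through its probe set with the highest mean log2.

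The members and lists were chosen with earlier results of these data known. Named genes were those past the threshold, up to 3 in each role group whose difference was largest in size, and core genes (eef1a1, eef1a2, eef1a1o, eef2, eif4e, eif4ebp1, eif2s1, eif5a, pabpc1 and etf1); eif4e and eif4ebp1 had no probe set of their own. Others were chosen after their values were seen. Only 4 arrays limit the precision. Alternatives were the pseudocount, the filter, the scaling, the trend, each array left out and the replicate number as a block.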

Additional observations from a re-analysis of the deposited data

How the results depend on the processing

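No member passed an adjusted p of 0.05 in limma under any setting that kept all 4 arrays, with a lowest adjusted p between 0.247 and 0.618. Over these settings their median difference ran from 0.02 to 0.07. The count of members at an unadjusted p under 0.05, 3 in the reported fit, was 0 with quantile normalization and 1 with no intensity trend, where the 1 was none of the 3. Leaving out 1 array, which takes the lone array to vary like the other group, it ran from 0 to 24, the highest without dorsal replicate 1, and the count of all probe sets past the threshold, reported as 24, from 4 to 902. That count was 13 when only probe sets above the 60th percentile were kept and 67 with the replicate block. In each fit with 1 array left out, the share at an unadjusted p under 0.05 was lower among members than among all probe sets. The member counts of those fits thus do not set the members apart from the background. Under the replicate block 4 members had an unadjusted p under 0.05 and 0 passed. Same-numbered arrays deviated together by a correlation of 0.0467 only, so the numbers are not taken to pair the pools. Signs turned both for genes near 0 and for some of those with the largest differences. With quantile normalization pabpc1.S was at 0.0245, eef1a1.S at 0.00114, eif5a.L at 0.0231 and etf1.S at -0.0551, and the elongation median was 0.02 in place of -0.06. Leaving out 1 array, eif4ebp2.S ran from -0.91 to 0.12, pabpc1.L from -0.53 to 0.0326, pabpc1.S from -0.13 to 0.0269, pabpc4.L from -0.11 to 0.53, eif2s1.S from -0.0655 to 0.27, eif2b4.L from -0.17 to 0.62, eif3a.S from -0.0184 to 0.85, eef2.1.L from -0.0465 to 0.0700, eif5a.L from -0.21 to 0.00949, eif1ad.L from -0.20 to 1.36 and etf1.S from -0.35 to 0.38. The cause was not tested. Apart from the counts and the member median, 406 values over these settings kept their direction and side of the threshold or moved by less than the spread between array pairs. Of the rest, 17 reversed direction, 7 moved and 7 became stronger. For the counts and the member median, 23 values stayed close to the reported fit and 12 moved.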
